A study of Homo sapiens with 12 samples.

Results

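The expression of 33 genes of the tricarboxylic acid (TCA) cycle and of pyruvate metabolism was examined by RNA-seq in A375, a human melanoma cell line with a mutated BRAF. The genes were taken by symbol from a count table of 44659 genes, by a rule that holds no measured value, and all 33 were found and had a mean normalized count of at least 10 in both experiments. They comprise 2 subunits of the mitochondrial pyruvate carrier, 5 subunits of the pyruvate dehydrogenase complex, 6 kinases and phosphatases of that complex, 11 enzyme subunits of the cycle in the mitochondrial matrix, and 9 enzymes that feed the cycle, drain it or run parallel to it. The subunits of succinate dehydrogenase are not among them and are given with the pathway neighbours. In the first experiment the cells grew for 24 h with 500 nM of the BRAF inhibitor vemurafenib and 500 nM of the MEK inhibitor cobimetinib (MAPKi) or with the solvent DMSO. In the other, the medium was replaced for 24 h by one without glutamine (Gln-depleted) or by the control medium, which holds 2 mM glutamine (CTRL). Each of the 4 groups has 3 libraries of the same cell line at the same time point, and the labels do not say whether replicates are separate cultures, so that p-values measure the spread between these libraries. MAPKi and DMSO libraries belong to sequencing batch 2 and the other libraries to sequencing batch 1. Within the glutamine experiment, replicate 1 of both groups is experimental batch 1, and replicates 2 and 3 are experimental batch 2.

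Pyruvate made by glycolysis enters mitochondria through the carrier MPC1-MPC2 and is oxidized to acetyl-CoA by the pyruvate dehydrogenase complex. PDK kinases switch this complex off by phosphorylation and PDP phosphatases switch it on again, and citrate synthase then joins acetyl-CoA to oxaloacetate to open the cycle. Pyruvate carboxylase refills the cycle from pyruvate, while glutamine, through glutamate, refills it at 2-oxoglutarate, and many cultured tumor cells rely on this second supply. The MAPKi and the Gln depletion experiments therefore ask how the transcripts of these enzymes behave when growth signalling is blocked and when a main fuel of the cycle is withdrawn.

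Between 31056296 and 40071368 reads were counted per library. Transcripts of the 33 genes made up 0.511% to 0.541% of a MAPKi library against 0.371% to 0.383% of a DMSO library, and 0.238% to 0.280% of a Gln-depleted library against 0.303% to 0.372% of a CTRL library, so that the groups did not overlap in either experiment. Of 8 lineage markers of the cell line, SOX10 and MITF had no less than 1613 normalized counts in any library, but others were low. Outside the MAPKi libraries MLANA had from 2.04 to 35.8 and TYR from 11.2 to 35.8, and MIA had from 2.23 to 16.7 in all 12 libraries and was not tested. The keratinocyte gene KRT5 was at 0 in all 12 libraries and the endothelial gene PECAM1 at no more than 1 read. KRT14, another keratinocyte gene, had no more than 7.02 normalized counts and the epithelial gene EPCAM no more than 3.23. CDH1, also epithelial, had from 3.34 to 7.07 with MAPKi against 0 to 1.08 with DMSO. After Gln depletion CDH1 had from 15.3 to 19.4 against 0.953 to 2.95 in CTRL medium. KRT14, EPCAM and CDH1 did not pass the count filter and were not tested. Of 7 lineage markers tested, 5 were upregulated and 1, S100B, was downregulated with MAPKi. After Gln depletion 0 were upregulated and 1, MITF, was downregulated, with a log2 fold change of -2.34. Of 8 markers of other cell types 3 passed the filter with MAPKi and 2 after Gln depletion, and the fibroblast gene LUM had from 371 to 461 normalized counts with MAPKi against 575 to 779 with DMSO, and from 81.7 to 148 after Gln depletion against 428 to 717 in CTRL medium. COL1A1, another fibroblast gene, had from 55.2 to 63.4 with MAPKi against 29.0 to 39.7 with DMSO, and from 4.85 to 15.3 after Gln depletion against 17.2 to 37.4 in CTRL medium, and the leukocyte gene PTPRC had from 2.65 to 6.68 with MAPKi against 13.5 to 18.3 with DMSO. As a check of the treatments, 6 of 6 MAPK target genes were downregulated with MAPKi and 5 of 5 tested amino acid response genes upregulated after Gln depletion. The non-coding RNA RN7SK made up 3.95% to 4.40% of MAPKi libraries against 1.93% to 2.15% of DMSO libraries, and from 1.99% to 3.79% after Gln depletion against 1.55% to 2.25% in CTRL medium. The part of these markers and of RN7SK in the results was not tested.

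Because many members moved in the same direction, the stretches upstream of their start sites were searched on both strands for 6 short motifs in RefSeq promoter sequences (GRCh38.p14, 250 bases upstream of a start), which held 31 of the 33 genes and 15843 protein-coding genes in all. OGDH and PDP1, both upregulated with MAPKi, had no such sequence and were not searched. The motif TGACNNNGC of antioxidant response elements was found in 4 of 31 members (12.9%) and in 14.73% of all genes, and GCGCANGCG of NRF1 elements in 4 of 31 members and 11.20% of all genes. CACGTG, an E-box, was present in 4 members (9.73% of all genes), and CCGGAAGT of ETS factors in 3 (5.82% of all genes). For TNAAGGTCA of estrogen-related receptors (0.82% of all genes) and TGATGNAA of ATF4 elements (3.16%) these windows held no match in a member. Such a match describes the letters only and does not show binding. Stretches with the antioxidant motif in capitals are printed for its 4 carriers, because 2 of them, IDH1 and ME1, fell with MAPKi and rose after Gln depletion, whereas MPC1 and IDH3G rose with MAPKi. They read 5′ to 3′ on the strand of the gene, which is the minus strand for all 4 of them, and MPC1 holds the motif in the reverse orientation. For IDH3A and MPC2, which rose with MAPKi, the capitals mark the NRF1 motif, in the reverse orientation in IDH3A (plus strand) and in the forward one in MPC2 (minus strand). The NRF1 motif was also found in IDH3G and SUCLA2, which rose with MAPKi as well and are not printed with it.
IDH1 (chr2:208255161-208255259): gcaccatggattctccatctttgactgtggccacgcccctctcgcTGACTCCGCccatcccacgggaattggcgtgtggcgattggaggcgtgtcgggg
ME1 (chr6:83431135-83431233): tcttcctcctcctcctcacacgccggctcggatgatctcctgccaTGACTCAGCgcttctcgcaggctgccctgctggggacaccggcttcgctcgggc
MPC1 (chr6:166383002-166383100): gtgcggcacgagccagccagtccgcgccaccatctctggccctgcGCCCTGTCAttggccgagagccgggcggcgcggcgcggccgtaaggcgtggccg
IDH3G (chrX:153794493-153794591): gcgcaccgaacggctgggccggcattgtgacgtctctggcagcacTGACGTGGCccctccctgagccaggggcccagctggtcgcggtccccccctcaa
IDH3A (chr15:78149308-78149361): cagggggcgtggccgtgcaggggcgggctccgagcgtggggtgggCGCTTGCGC
MPC2 (chr1:167936118-167936216): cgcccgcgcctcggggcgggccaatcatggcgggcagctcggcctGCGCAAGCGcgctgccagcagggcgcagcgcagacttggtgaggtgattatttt

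MAPKi raised most of the pathway. A gene was called upregulated or downregulated when its change exceeded 1.5-fold in edgeR's quasi-likelihood framework (adjusted by Benjamini-Hochberg over the 12594 protein-coding genes tested, an adjusted p of 0.05 as the limit), and it is said to have risen or fallen when the test against no change did. By the first test 13 of 33 members were upregulated, against 17.0% of all genes tested, and 4 were downregulated, against 18.6%. By the second, 24 members rose (38.9% of all genes rose) and 6 fell (39.2% of all genes fell). In 25 members every MAPKi library lay above every DMSO library, as in 40.3% of all genes, and in 6 every one lay below, as in 40.6%. The median log2 fold change of the members was 0.40, in a range from -2.20 to 2.60, where the median of all genes tested was 0.00. These counts are shares of a library, so fewer transcripts per cell and a larger share of other transcripts cannot be told apart, nor can fewer cells of a kind and less RNA per cell.

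**Figure D1:**
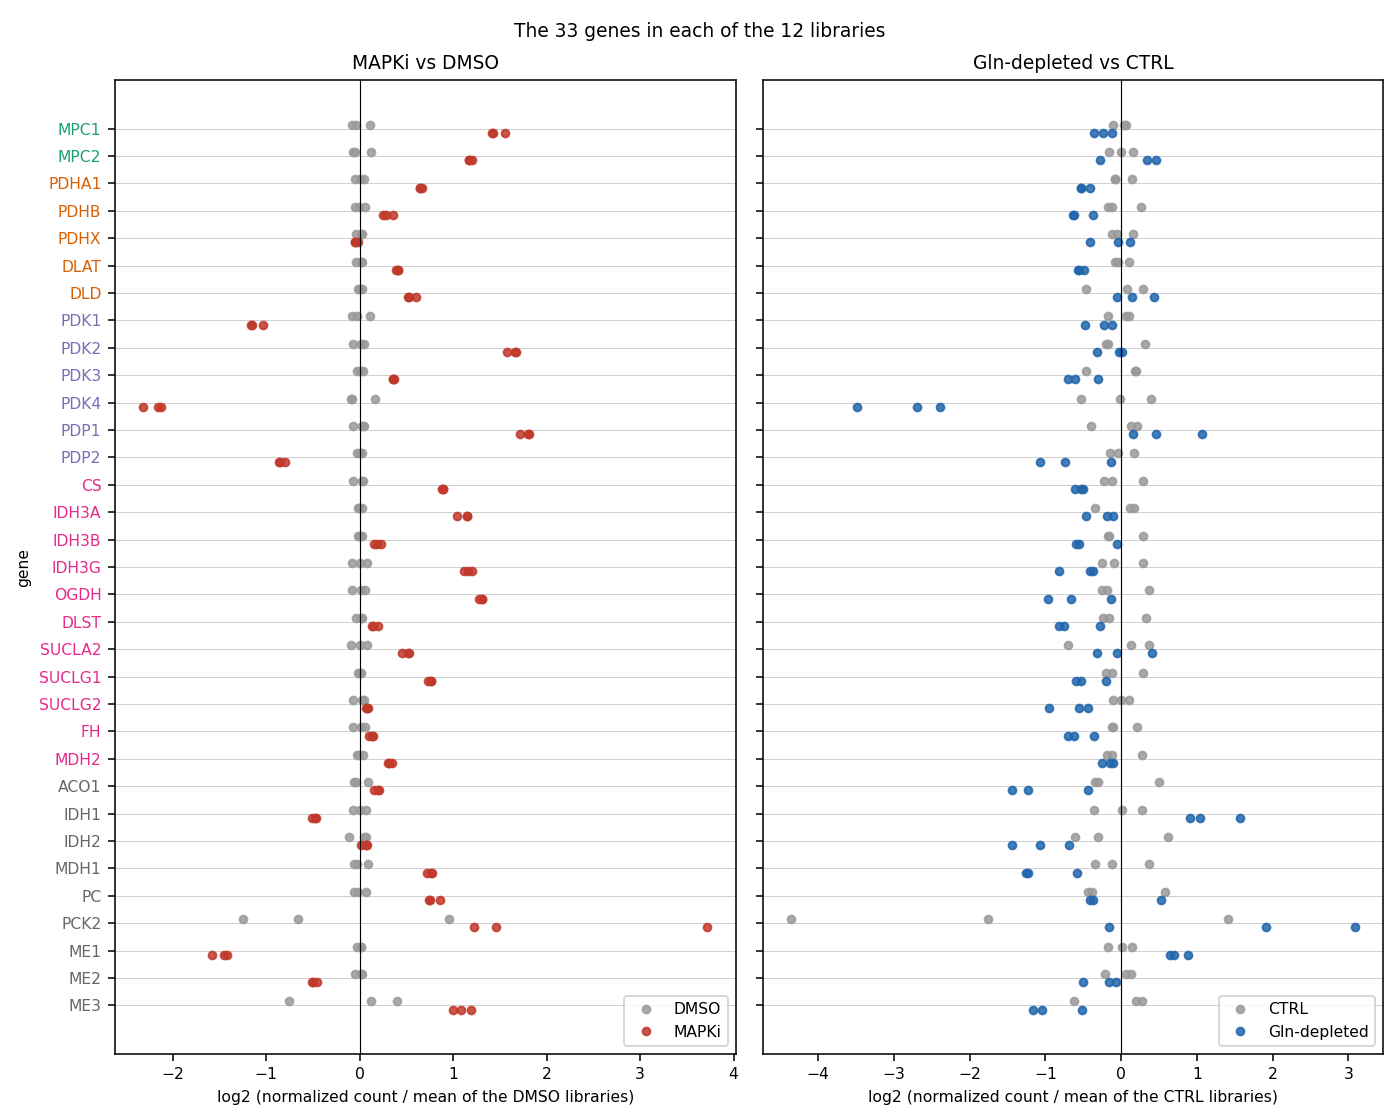
Normalized counts of the 33 genes in each library, as log2 of the ratio to the mean of the control libraries, for the MAPKi experiment (left, grey DMSO, red MAPKi) and the glutamine experiment (right, grey CTRL, blue Gln-depleted), where each point is a library. Gene labels are coloured by role (green carriers, orange pyruvate dehydrogenase complex, violet its kinases and phosphatases, pink cycle enzymes, grey side enzymes), and the red points lie to the right of the grey ones without overlap for 25 genes, while 13 genes have all blue points to the left of the grey ones.

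Gln depletion left most members without a call. Against the same threshold, 0 of 33 members were upregulated and 1, PDK4, was downregulated, where 3.48% and 2.10% of 12514 genes were called, or 436 and 263 genes. Scaling by library totals alone gave 356 and 413 genes and moved the median of all genes to -0.14 on the log2 scale. At an unadjusted p under 0.05 against that threshold these numbers were 1 and 3, and DESeq2 called 0 and 1 member. Tested against no change, IDH1 and ME1 rose (9.45% of all genes) and PDK4 and MDH1 fell (8.43% of all genes). The fold changes were negative for 26 of 33 members (27 when scaled by library totals), with a median log2 of -0.44 where that of all genes was 0.00, and 13 members had all Gln-depleted libraries below all CTRL libraries, against 19.8% of all genes, while 2 had them above, against 20.1%. The libraries of this experiment spread more than those of the other, with a median SE of the members' log2 fold changes of 0.23 against 0.05.

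Replicate numbers pair the libraries of the glutamine experiment, and with the number as a block the calls were more. IDH1 and PCK2 were then upregulated (2 members, against 8.85% of all genes) and PDK4, MDH1 and ACO1 downregulated (3 members, against 7.84%). Tested against no change, 17 members fell (23.8% of all genes) and 4 rose (25.1% of all genes) with the block. Within experimental batch 2 alone, with 2 libraries per group, 1 member was upregulated, IDH1 (5.85% of all genes), and PDK4, MDH1 and ACO1 were downregulated (5.13% of all genes). Of the 33 members, 23 were lower in the Gln-depleted library of all 3 pairs and 5 were higher in all 3. The shares of all genes with such pairs were not counted, so these numbers describe the members only.

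The effects of the 2 treatments were then compared with each other, by subtracting the log2 fold change after Gln depletion from that with MAPKi in a fit of the 12 libraries. At an adjusted p of at most 0.05 this difference lay above 0 for 21 members (19.6% of 12627 genes) and below 0 for 3, IDH1, ME1 and PDK1 (20.9% of all genes), or 24 members in all (40.5% of all genes), with a median over the members of 0.88 where that of all genes was -0.03. In sign, 21 members were higher with MAPKi and lower after Gln depletion, and only IDH1 and ME1 were the reverse. The shares of all genes with such signs were not counted. With the replicate numbers as a block, 25 members lay above 0 (29.0% of all genes) and 3 below (32.1%), or 28 in all where 61.1% of all genes differed, so that the count rose for genes in general. The experiments were sequenced in different batches, and this difference compares changes, each measured within its own batch. The fit shares an estimate of spread per gene between the experiments, although the libraries of the glutamine experiment spread more. For some members the SE of the difference is therefore below that of the Gln depletion effect alone, as in PDHA1 (0.15 and 0.17) and ME1 (0.17 and 0.18). Such SEs and their adjusted p can be too small.

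**Figure D2:**
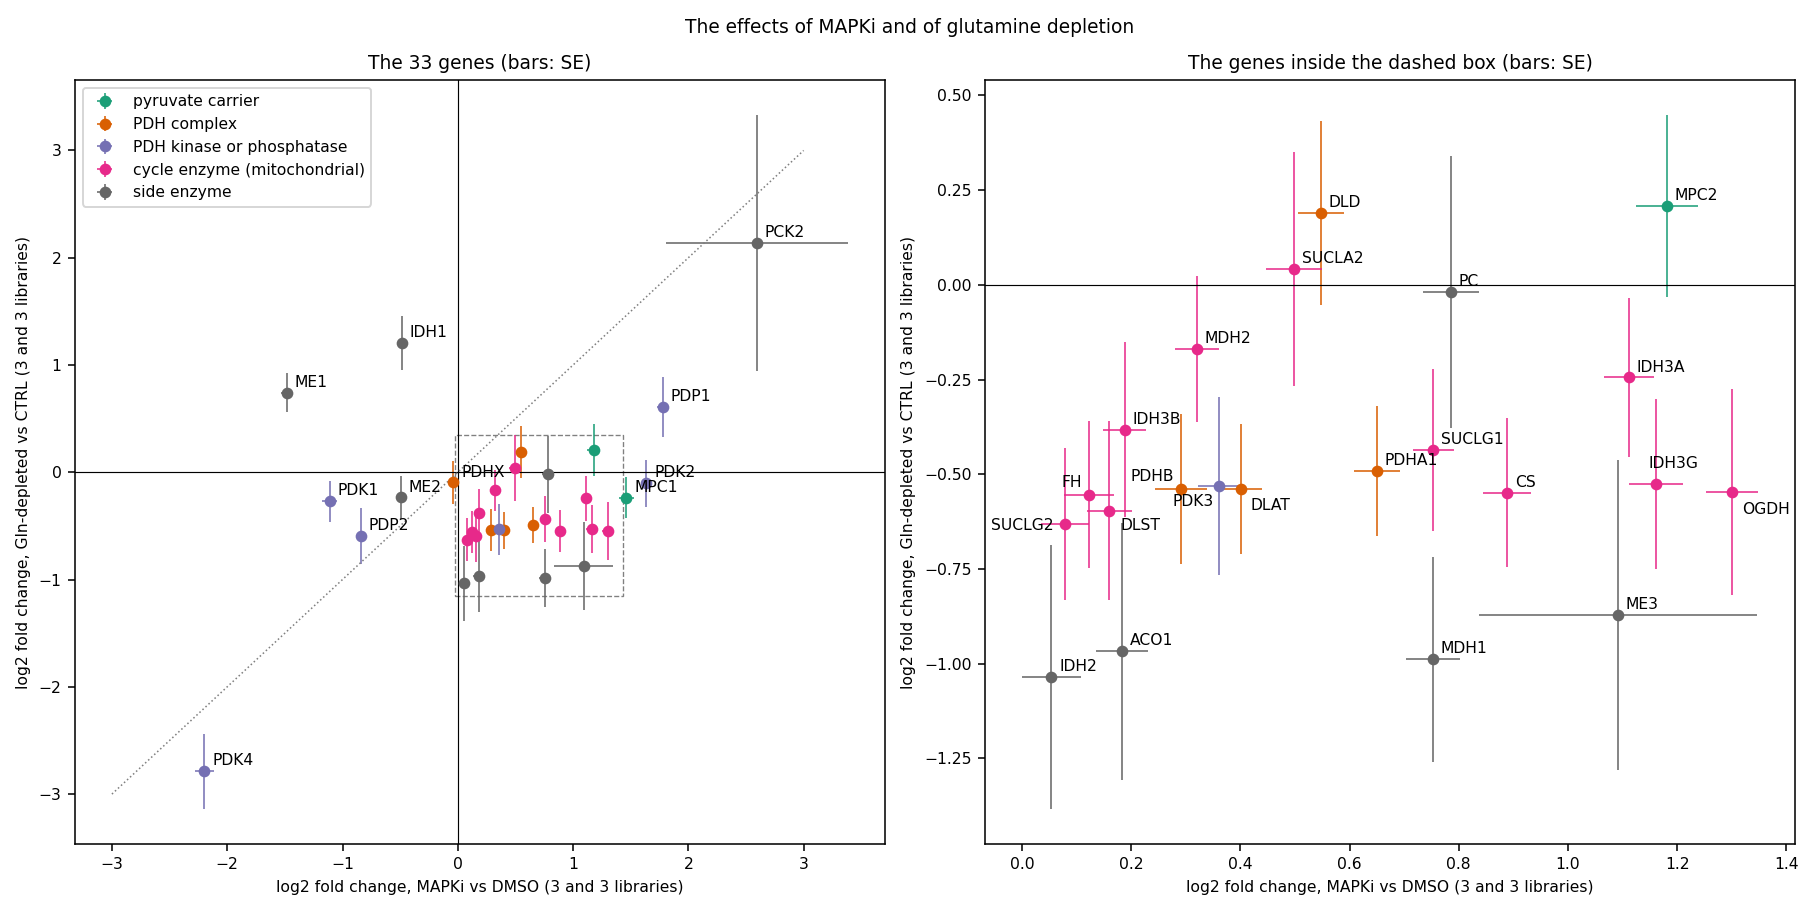
Log2 fold change of each of the 33 genes with MAPKi (x axis) and after Gln depletion (y axis), with bars of 1 SE and colours by role, where the dotted line marks equal effects and the right panel enlarges the dashed box. IDH1 and ME1 stand alone at the upper left, PDK4 is low on both axes at -2.20 and -2.79, and 21 genes lie at the lower right.

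The mitochondrial pyruvate carrier is a dimer of MPC1 and MPC2, both of which are needed for transport. MPC1 (chr6:166364919-166383013, minus strand) had normalized counts of 559, 576 and 638 with DMSO and 1572, 1734 and 1583 with MAPKi. All MAPKi libraries lay far above the DMSO libraries, and MPC1 was upregulated by a log2 fold change of 1.46 ± 0.07 (SE, adjusted p = 6.34e-08 against no change), or 2.76 times. MPC2 had normalized counts of 937, 952 and 1074 with DMSO and 2219, 2275 and 2229 with MAPKi. Its log2 fold change was 1.18 ± 0.06 (adjusted p = 9.08e-08), again without overlap of the groups. In MPC2, 21.8% of the exon length lies under DCAF6 on the opposite strand, which had from 2706 to 3420 counts with DMSO and from 3340 to 4198 with MAPKi. The strand setting of the counting was not given in the sources used here, so reads of such pairs cannot be told apart. Neither subunit passed a test after Gln depletion, although the 3 Gln-depleted libraries were the lowest for MPC1. MPC1 had normalized counts of 674, 688 and 611 in CTRL medium and 512, 559 and 604 after Gln depletion, a log2 fold change of -0.24 ± 0.19 with a 95% interval of -0.67 to 0.19. MPC2 had 775, 694 and 867 in CTRL medium and 640.0, 986 and 1072 after Gln depletion, and a log2 fold change of 0.21 ± 0.24 with an interval of -0.34 to 0.76. Both carriers differed between treatments, MPC1 by 1.74 ± 0.16 (adjusted p = 1.16e-05) and MPC2 by 1.02 ± 0.24 (adjusted p = 0.00527). Per kilobase of exon, MPC1 made up 50.6% ± 0.26 (SD, n = 3) of the sum of both subunits with DMSO and 55.5% ± 1.02 with MAPKi.

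The pyruvate dehydrogenase complex is built from the E1 subunits PDHA1 and PDHB, the acetyltransferase DLAT, the dihydrolipoamide dehydrogenase DLD and the E3-binding protein PDHX. With MAPKi 4 of these 5 rose by the test against no change, as did 38.9% of all genes. Against the fold threshold 0 were called (1 at an unadjusted p under 0.05), and PDHX passed neither test. PDHA1, the catalytic E1 alpha subunit on chromosome X, had normalized counts of 5431, 5630.0 and 5810.0 with DMSO and 8779, 8938 and 8768 with MAPKi, so that each MAPKi library was above each DMSO library. Its log2 fold change of 0.65 ± 0.04 missed the call against the fold threshold (adjusted p = 0.0653) and passed the test against no change (adjusted p = 6.86e-07). MAP3K15 lies opposite to 19.3% of its exon length and had no more than 70 counts in any library. DLAT had normalized counts of 1943, 1854 and 1922 with DMSO and 2532, 2530.0 and 2493 with MAPKi and rose by 0.40 ± 0.04 (adjusted p = 8e-06). PDHB followed with 2831, 2929.9 and 3065 with DMSO and 3484, 3563 and 3754 with MAPKi, a rise of 0.29 ± 0.05 (adjusted p = 0.000352). DLD, which also serves the 2-oxoglutarate dehydrogenase complex, rose by 0.55 ± 0.04 on the log2 scale. PDHX changed by -0.04 ± 0.04, with an interval of -0.12 to 0.05.

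After Gln depletion the same complex showed fold changes below 0 for PDHA1, PDHB, PDHX and DLAT, which missed the adjusted threshold against no change. PDHA1 had normalized counts of 5439.9, 4686 and 4683 in CTRL medium and 3694, 3421 and 3418 after Gln depletion and DLAT had 1745, 1936 and 1704 in CTRL medium and 1219.8, 1277 and 1208 after Gln depletion. In both genes, as in PDHB, the 3 Gln-depleted libraries were the lowest, and the log2 fold changes were -0.49 ± 0.17 (adjusted p = 0.0818) and -0.54 ± 0.17 (adjusted p = 0.0632). With the block they were -0.49 ± 0.11 (adjusted p = 0.00806) and -0.54 ± 0.11 (adjusted p = 0.00589), past the threshold. PDHB had normalized counts of 3458, 2568 and 2652 in CTRL medium and 2233, 1864 and 1877 after Gln depletion, with a log2 fold change of -0.54 ± 0.20 and, with the block, -0.53 ± 0.11 (adjusted p = 0.00664). DLD was the only subunit with a positive value, 0.19 ± 0.24, with an interval of -0.37 to 0.74. PDHA1, DLAT and PDHB differed between the treatments, by 1.19 ± 0.15, 0.99 ± 0.14 and 0.88 ± 0.20 (adjusted p = 8.48e-05, 0.000175 and 0.00384), whereas for DLD and PDHX the differences of 0.40 ± 0.24 and 0.10 ± 0.19 missed the threshold, with intervals of -0.13 to 0.93 and -0.31 to 0.51. With the block the difference in DLD passed (0.38 ± 0.10, adjusted p = 0.0128).

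The 4 pyruvate dehydrogenase kinases, which inactivate the complex, did not move as a family. PDK4 (chr7:95583499-95596516, minus strand) had normalized counts of 4059, 4062 and 4829.8 with DMSO and 867, 992 and 965 with MAPKi. The MAPKi libraries held 0.22 times the DMSO level, and the log2 fold change was -2.20 ± 0.08 (adjusted p = 1.94e-08). PDK1, a target of hypoxia-inducible factors, had normalized counts of 1728, 1899.8 and 1661 with DMSO and 789, 795 and 861 with MAPKi. It too was downregulated without overlap, by -1.11 ± 0.06 (adjusted p = 2.88e-07). PDK2, the most widely expressed kinase of the family, went the other way, with normalized counts of 1142, 1211 and 1241 with DMSO and 3567, 3789 and 3813 with MAPKi. Its log2 fold change was 1.64 ± 0.05 (adjusted p = 5.05e-09), or 3.11 times. Of its exon length, 38.6% lies opposite to SAMD14, which had from 57 to 109 counts with DMSO and from 216 to 258 with MAPKi. The part of reads from this overlap in the counts of PDK2 was not tested. PDK3 had normalized counts of 3769.6, 3598 and 3679 with DMSO and 4732, 4723 and 4728 with MAPKi and rose by 0.36 ± 0.04 (adjusted p = 2.01e-05), under the fold threshold.

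PDK4 also had the largest fold change of the set in size after Gln depletion, before any block. It had normalized counts of 1988, 2648 and 1398 in CTRL medium and 384, 179 and 311 after Gln depletion, and the highest Gln-depleted library was far below the lowest CTRL library. Its log2 fold change was -2.79 ± 0.35 (adjusted p = 0.00531 against the fold threshold), and the pairs gave -2.37, -3.88 and -2.17. The fall of PDK4 was thus seen with both treatments, and the difference between them, 0.64 ± 0.38, missed the threshold (adjusted p = 0.2, interval -0.18 to 1.46). The other kinases had overlapping libraries after Gln depletion. PDK1 had 1323, 1556 and 1605 in CTRL medium and 1078, 1273 and 1368 after Gln depletion, with a log2 fold change of -0.27 ± 0.19. PDK2 had 1197, 836 and 848 in CTRL medium and 945, 772 and 967 after Gln depletion, with -0.10 ± 0.22. PDK3 had 2165, 3385 and 3426 in CTRL medium and 1837, 1960.0 and 2412 after Gln depletion, with -0.53 ± 0.24 and, with the block, an adjusted p of 0.0174 against no change. PDK2, PDK3 and PDK1 each differed between the treatments, by 1.79 ± 0.22, 0.93 ± 0.23 and -0.80 ± 0.17 (adjusted p = 7.62e-05, 0.00678 and 0.00305).

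Per kilobase of exon, PDK4 was the most abundant kinase transcript in both control groups and PDK2 in both treated groups. This order depends on the merged length of all annotated exons. It is 17456 bases for PDK3 and 14845 for PDK1, against 5471 for PDK2 and 4544 for PDK4. In mean normalized counts PDK3 stood above PDK2 with MAPKi (4728 and 3723) and after Gln depletion (2070 and 895). In CTRL medium PDK3 stood above PDK4 (2992 and 2011). In counts per kilobase of exon, PDK4 stood with DMSO at 950.0 ± 97.7 (SD, n = 3), followed by PDK2 at 219 ± 9.24, PDK3 at 211 ± 4.90, where PDK2 and PDK3 differ by less than their spread, and PDK1 at 119 ± 8.31. With MAPKi the order was PDK2 at 680.4 ± 24.8, PDK3 at 271 ± 0.27, PDK4 at 207 ± 14.5 and PDK1 at 54.9 ± 2.67. PDK4 made up 63.3% ± 2.30 of the sum of the 4 kinases with DMSO and 17.1% ± 0.67 with MAPKi, while PDK2 went from 14.6% ± 0.61 to 56.1% ± 0.21. After Gln depletion the share of PDK4 was 14.7% ± 4.50 against 48.9% ± 8.21 in CTRL medium, and that of PDK2 38.0% ± 1.44 against 20.1% ± 5.20. The summed level was 1213 ± 40.2 with MAPKi and 1499 ± 98.6 with DMSO, and 429.8 ± 48.6 after Gln depletion against 890.3 ± 135, in counts per kilobase. These shares and sums are descriptions and were not tested.

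**Figure D3:**
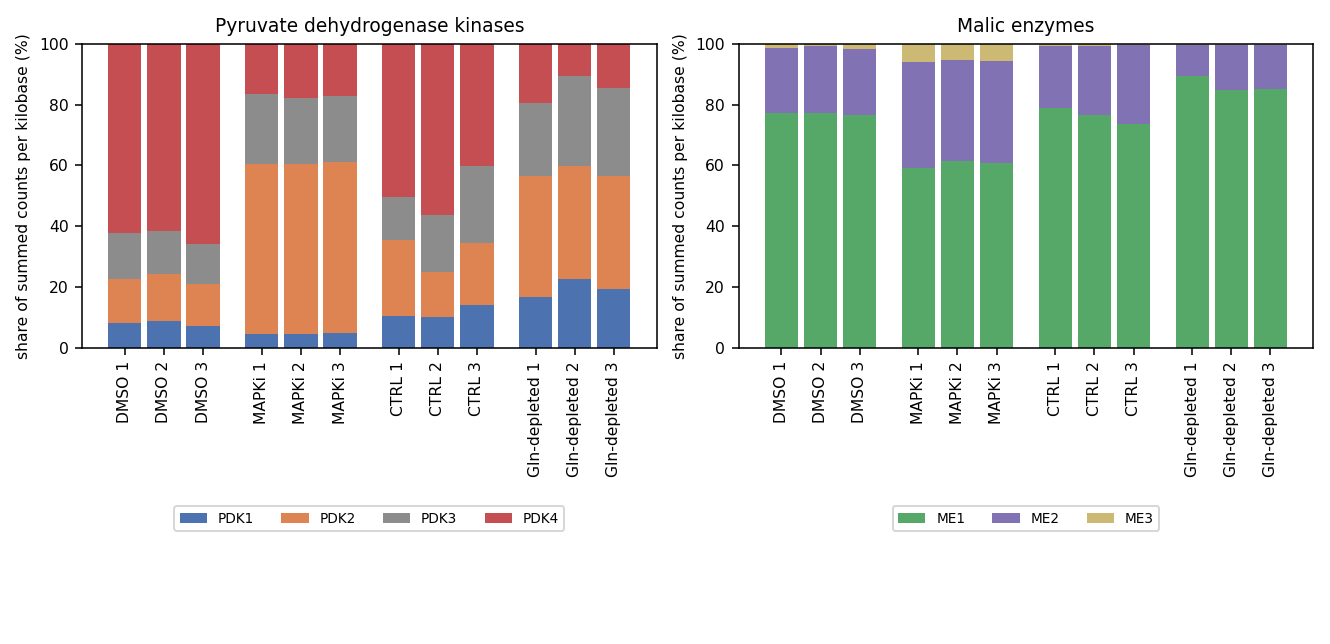
Share of each pyruvate dehydrogenase kinase (left) and of each malic enzyme (right) in the summed counts per kilobase of exon of its family, as stacked bars in percent for each of the 12 libraries. The PDK4 part is the largest in every DMSO and CTRL library, and the PDK2 part is the largest in every MAPKi and Gln-depleted library.

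The 2 phosphatases that reactivate the complex moved apart. PDP1, the calcium-stimulated enzyme, had normalized counts of 2615, 2637 and 2435 with DMSO and 8433, 8939 and 9023 with MAPKi. It was upregulated by 1.78 ± 0.05 (adjusted p = 4.34e-09), or 3.43 times, the largest rise among the members apart from PCK2, whose counts are few. PDP2 had normalized counts of 1629, 1683 and 1659 with DMSO and 915, 954 and 914 with MAPKi and was downregulated, with a log2 fold change of -0.84 ± 0.04 (adjusted p = 1.6e-07). Neither pair of groups overlapped. Per kilobase of exon, PDP1 made up 69.4% ± 0.98 of the sum of both phosphatases with DMSO and 93.3% ± 0.22 with MAPKi. In the glutamine experiment PDP1 had normalized counts of 1943, 2971 and 2803 in CTRL medium and 3534, 5369 and 2855 after Gln depletion, a log2 fold change of 0.61 ± 0.28 that missed the threshold (adjusted p = 0.163) and passed it against no change with the block (adjusted p = 0.03). PDP2 had normalized counts of 2491, 1989 and 2154 in CTRL medium and 2016, 1326 and 1048 after Gln depletion, with -0.60 ± 0.26 and, with the block, an adjusted p of 0.0117. The effects on PDP1 differed by 1.22 ± 0.29 (adjusted p = 0.00634) and those on PDP2 by -0.20 ± 0.28 (adjusted p = 0.602, interval -0.80 to 0.41).

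The 11 mitochondrial cycle enzymes all had positive fold changes with MAPKi, and 10 of 11 had negative ones after Gln depletion. With MAPKi 5 were upregulated (17.0% of all genes were), 10 rose by the test against no change (38.9% of all genes rose), and SUCLG2 did not pass it. Citrate synthase, CS, had normalized counts of 12824, 12009.8 and 12943 with DMSO and 23419, 23209 and 23313 with MAPKi and was upregulated by 0.89 ± 0.04 (adjusted p = 1.15e-07). IDH3A, the catalytic alpha subunit of the NAD-dependent isocitrate dehydrogenase, had normalized counts of 3909, 4002 and 3901 with DMSO and 8074, 8706 and 8747 with MAPKi. For IDH3G, its regulatory gamma subunit, they were 1751, 1840.3 and 1656 with DMSO and 3800.3, 3894 and 4035 with MAPKi. Both were upregulated without overlap, with log2 fold changes of 1.11 ± 0.05 (adjusted p = 3.8e-08) and 1.16 ± 0.05 (adjusted p = 4.23e-08), whereas IDH3B, the beta subunit of the same enzyme, rose only by 0.19 ± 0.04 (adjusted p = 0.00201). Of the exon length of IDH3A, 38.8% lies opposite to ACSBG1 and CIB2, which had no more than 221 and 49 counts per library. In IDH3G 9.9% lies opposite to SSR4, with from 2620 to 2842 counts with DMSO and from 3132 to 3961 with MAPKi.

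OGDH, the E1 subunit of the 2-oxoglutarate dehydrogenase complex and the step at which glutamine carbon enters oxidation, had normalized counts of 4730.0, 4426 and 4868 with DMSO and 11607, 11609 and 11342 with MAPKi. It was the cycle enzyme with the highest fold change, 1.30 ± 0.05 (adjusted p = 1.76e-08), or 2.46 times. Its partner DLST, the E2 subunit, had normalized counts of 6715, 6497 and 6773 with DMSO and 7314, 7359 and 7654 with MAPKi and rose by 0.16 ± 0.04 (adjusted p = 0.00626). SUCLG1, the alpha subunit of succinyl-CoA synthetase, had normalized counts of 3324, 3248 and 3297 with DMSO and 5465, 5568 and 5600.1 with MAPKi and was upregulated by 0.75 ± 0.04 (adjusted p = 1.2e-07). Of its alternative beta subunits, SUCLA2, of the ATP-forming enzyme, rose by 0.50 ± 0.05 (adjusted p = 1.49e-05), and SUCLG2, of the GTP-forming enzyme, had normalized counts of 3217, 3003 and 3275 with DMSO and 3349.9, 3320.3 and 3357 with MAPKi, a change of 0.08 ± 0.04 with an interval of -0.02 to 0.18. Fumarate hydratase, FH, had normalized counts of 3920.2, 4181 and 4305 with DMSO and 4426, 4549 and 4539 with MAPKi and rose by 0.12 ± 0.05 (adjusted p = 0.0335), and MDH2, the mitochondrial malate dehydrogenase, by 0.32 ± 0.04 (adjusted p = 6.87e-05). Subunits of the same enzyme thus had unequal fold changes in isocitrate dehydrogenase, 2-oxoglutarate dehydrogenase and succinyl-CoA synthetase.

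After Gln depletion the fold changes of the cycle enzymes lay between -0.63 and 0.04, with a median of -0.52. The test against no change passed for 0 of 11. At an unadjusted p under 0.05 in that test 5 fell, and the share of all genes at this limit was not counted. With the block 8 fell, where 23.8% of all genes did. CS had normalized counts of 15211, 11478 and 10617 in CTRL medium and 8613, 8118 and 8775 after Gln depletion, with all Gln-depleted libraries below the CTRL libraries and a log2 fold change of -0.55 ± 0.20 (-0.53 ± 0.13 with the block, adjusted p = 0.0132). SUCLG2 had normalized counts of 2442, 2633 and 2285 in CTRL medium and 1273, 1671 and 1809 after Gln depletion, FH had 4503, 3583 and 3597 in CTRL medium and 3039, 2529 and 2388 after Gln depletion, and DLST had 8216, 5583 and 5898 in CTRL medium and 5409, 3896 and 3721 after Gln depletion, again without overlap. Their log2 fold changes with the block were -0.64 ± 0.14, -0.55 ± 0.11 and -0.60 ± 0.11 (adjusted p = 0.00772, 0.00507 and 0.00352). OGDH had normalized counts of 5040.2, 3439 and 3292 in CTRL medium and 3563, 2484 and 2007 after Gln depletion, where the groups overlapped through replicate 1 of the Gln-depleted group, and the pairs gave log2 ratios of -0.50, -0.47 and -0.71. Its log2 fold change of -0.55 ± 0.27 (adjusted p = 0.19) passed with the block (-0.56 ± 0.12, adjusted p = 0.00603), as did that of IDH3B, -0.38 ± 0.23 (adjusted p = 0.273) without and -0.39 ± 0.11 (adjusted p = 0.0208) with it. IDH3G had normalized counts of 1841, 1256 and 1407 in CTRL medium and 1157, 850.3 and 1123 after Gln depletion, and IDH3A had 3055, 4364 and 4209 in CTRL medium and 2814, 3399 and 3603 after Gln depletion. IDH3G fell with the block (-0.52 ± 0.12, adjusted p = 0.0101), while IDH3A did not pass (-0.23 ± 0.11, adjusted p = 0.125). SUCLG1 had normalized counts of 3890.4, 2937 and 2774 in CTRL medium and 2779.6, 2207 and 2109 after Gln depletion and fell with the block (-0.43 ± 0.11, adjusted p = 0.0144). SUCLA2 had no stable sign, with pairs at 0.38, 0.04 and -0.19.

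Tested directly, 9 of 11 cycle enzymes differed between the treatments (40.5% of all genes did), and all 11 did with the block, by which 61.1% of all genes differed. The largest differences were those of OGDH, 1.90 ± 0.30 (adjusted p = 0.000422), IDH3G, 1.73 ± 0.23 (adjusted p = 0.000128), CS, 1.49 ± 0.20 (adjusted p = 0.000125) and IDH3A, 1.40 ± 0.20 (adjusted p = 0.000195). SUCLG1 differed by 1.24 ± 0.21 (adjusted p = 0.00079). DLST, SUCLG2, FH and MDH2 differed by 0.80 ± 0.25, 0.76 ± 0.19, 0.72 ± 0.19 and 0.54 ± 0.19, with adjusted p between 0.007 and 0.0376. IDH3B and SUCLA2 missed the threshold, at 0.62 ± 0.24 (adjusted p = 0.0587) and 0.50 ± 0.33 (adjusted p = 0.252).

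**Figure D4:**
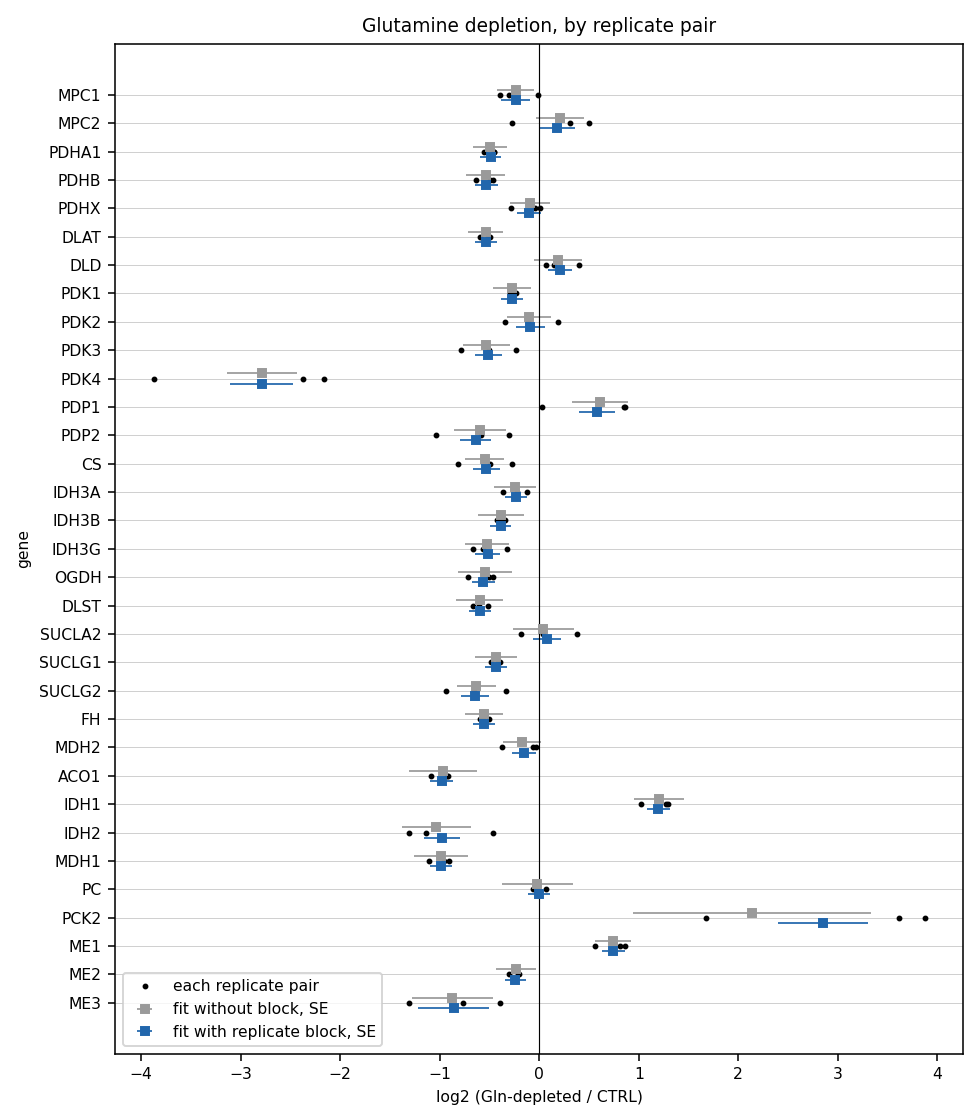
Effect of Gln depletion on each of the 33 genes on the log2 scale, with a black point for each of the 3 replicate pairs, a grey square for the fit without and a blue square for the fit with the replicate number as a block, and bars of 1 SE. Both squares of a gene lie close together except for PCK2 (2.14 and 2.85), and the blue bars are shorter than the grey ones for most genes, among them ACO1, IDH1, MDH1, OGDH and PC.

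Among the enzymes beside the cycle, those that make NADPH in the cytosol went against most of the set. IDH1, the cytosolic NADP-dependent isocitrate dehydrogenase, had normalized counts of 5309.7, 5600.3 and 5882 with DMSO and 4019.9, 3928 and 4060.0 with MAPKi. All MAPKi libraries were below the DMSO libraries, and the log2 fold change of -0.48 ± 0.05 was under the fold threshold (adjusted p = 1.18e-05 against no change). In the glutamine experiment IDH1 had normalized counts of 6005, 5002 and 3846 in CTRL medium and 14716, 10166 and 9319 after Gln depletion. Every Gln-depleted library was above every CTRL library, with pairs at 1.29, 1.02 and 1.28 and a log2 fold change of 1.20 ± 0.25 (adjusted p = 0.0165 against no change and 0.0814 against the fold threshold), and 1.20 ± 0.12 with the block (adjusted p = 0.00244 against the fold threshold). ME1 (chr6:83210402-83431051, minus strand), the cytosolic malic enzyme that makes pyruvate and NADPH from malate, had normalized counts of 3607, 3707 and 3705 with DMSO and 1225, 1346 and 1370.4 with MAPKi. It was downregulated, with a log2 fold change of -1.48 ± 0.05 (adjusted p = 9.99e-09). In the glutamine experiment it had normalized counts of 3448, 3774 and 3027 in CTRL medium and 6277, 5555 and 5317 after Gln depletion, again without overlap but in the other direction, and rose by 0.74 ± 0.18 (adjusted p = 0.028 against no change). The treatments differed by -1.64 ± 0.27 in IDH1 (adjusted p = 0.00061) and by -2.18 ± 0.17 in ME1 (adjusted p = 2.73e-06), the largest difference of any member.

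IDH2, the mitochondrial NADP-dependent counterpart of IDH1, had normalized counts of 1866, 1668 and 1893 with DMSO and 1829, 1892 and 1911 with MAPKi, overlapping groups, with a change of 0.05 ± 0.05 and an interval of -0.07 to 0.18. In the glutamine experiment it had normalized counts of 2227, 1175 and 956 in CTRL medium and 898, 532 and 694 after Gln depletion, all below the CTRL libraries, with -1.04 ± 0.35 (adjusted p = 0.0727 against no change) and with the block -0.97 ± 0.18 (adjusted p = 0.00362 against no change and 0.052 against the fold threshold). Between the treatments it differed by 1.14 ± 0.40 (adjusted p = 0.0374). Per kilobase, IDH1 made up 67.9% ± 5.53 of the sum of both genes in CTRL medium and 90.5% ± 1.53 after Gln depletion, and 64.7% ± 1.89 with DMSO and 55.8% ± 0.70 with MAPKi.

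ACO1 and MDH1 are cytosolic enzymes, ACO1 being an aconitase that doubles as an iron-regulatory protein and MDH1 the malate dehydrogenase of the malate-aspartate shuttle. ACO1 had normalized counts of 2454, 2418 and 2682 with DMSO and 2879, 2908 and 2793 with MAPKi, a rise of 0.18 ± 0.05 (adjusted p = 0.00675). In the glutamine experiment it had normalized counts of 2797, 1602 and 1556 in CTRL medium and 1468, 847 and 729 after Gln depletion, with replicate 1 the highest of both groups, and every pair fell, by log2 ratios of -0.93, -0.92 and -1.09. It was downregulated with the block (-0.98 ± 0.11, adjusted p = 0.0109 against the fold threshold) and within batch 2 (-1.0, adjusted p = 0.0467 against the fold threshold), and did not pass without them (-0.97 ± 0.34, adjusted p = 0.0816 against no change). MDH1 had normalized counts of 17040.2, 16641 and 18508 with DMSO and 28737, 29482 and 29703 with MAPKi and was upregulated with MAPKi by 0.75 ± 0.05 (adjusted p = 7.58e-07). Upon Gln depletion its libraries stood at 17764, 12642 and 10748 in CTRL medium and 9136, 5860.4 and 5749 after Gln depletion, and it fell, with a log2 fold change of -0.99 ± 0.27 (adjusted p = 0.0399 against no change), and past the fold threshold with the block (adjusted p = 0.00861). ACO1 and MDH1 differed between the treatments by 1.20 ± 0.38 (adjusted p = 0.0255) and 1.79 ± 0.30 (adjusted p = 0.000627). MDH1 was 62.0% ± 0.52 of the sum of MDH1 and MDH2 per kilobase with MAPKi against 54.7% ± 0.83 with DMSO, and 37.4% ± 5.36 after Gln depletion against 51.5% ± 3.15.

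PC, pyruvate carboxylase, the anaplerotic enzyme that makes oxaloacetate, had normalized counts of 2909, 2990.3 and 3177 with DMSO and 5483, 5058 and 5108 with MAPKi and was upregulated with MAPKi by 0.79 ± 0.05 (adjusted p = 6.63e-07). LRFN4 lies opposite to 8.5% of its exon length and had from 862 to 1051 counts with DMSO and from 1855 to 2528 with MAPKi. With and without glutamine PC had normalized counts of 3738, 1919 and 1836 in CTRL medium and 3581, 1886 and 1929 after Gln depletion, and the pairs, at -0.06, -0.02 and 0.07, were close to 0. The difference between the treatments, 0.85 ± 0.41, missed the threshold without the block (adjusted p = 0.122) and passed with it (0.84 ± 0.10, adjusted p = 0.000227). ME2, a mitochondrial malic enzyme, fell with MAPKi (log2 fold change -0.49 ± 0.04, adjusted p = 3.85e-06) and changed by -0.23 ± 0.20 after Gln depletion, with an interval of -0.69 to 0.22. ME3, the other mitochondrial malic enzyme, had few counts, with normalized values of 71.0, 38.6 and 86.1 with DMSO and 138, 130.2 and 148 with MAPKi. The call of ME3 as upregulated (1.09 ± 0.25, adjusted p = 0.0361 against the fold threshold) was lost without DMSO replicate 1 or 2 or MAPKi replicate 1 or 3, where adjusted p lay between 0.0529 and 0.0864. Under glutamine control and depletion ME3 had normalized counts of 42.3, 40.0 and 22.6 in CTRL medium and 24.5, 15.6 and 17.0 after Gln depletion, with -0.87 ± 0.41, and the treatments differed by 2.01 ± 0.49 (adjusted p = 0.00619). ME1 remained the largest of the 3 malic enzymes per kilobase in every group, at 77.1% ± 0.41 with DMSO, 60.5% ± 1.19 with MAPKi, 76.4% ± 2.65 in CTRL medium and 86.5% ± 2.58 after Gln depletion.

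PCK2, the mitochondrial phosphoenolpyruvate carboxykinase, is a known target of ATF4, but its counts here were few and unstable, and a further copy of it in the table had no more than 2 reads. It had normalized counts of 3.23, 14.9 and 4.84 with DMSO and 21.1, 17.8 and 101 with MAPKi in the first experiment, and in the other 198, 21.9 and 3.62 in CTRL medium and 633, 281 and 66.7 after Gln depletion. One library per group stood apart from the others with MAPKi (replicate 3) and in CTRL medium (replicate 1), and SDHB, a subunit of succinate dehydrogenase, had raw counts of 120 and 324 in these same libraries against no more than 30 in the other MAPKi, DMSO and CTRL libraries and 26, 1458 and 8 after Gln depletion. PCK2 passed as upregulated with MAPKi at 2.60 ± 0.79 (adjusted p = 0.0382 against the fold threshold), and no longer did without DMSO replicate 1 (adjusted p = 0.116), DMSO replicate 3 (0.141) or MAPKi replicate 3 (0.212), where without the last the log2 fold change was 1.31. With Gln depletion the value was 2.14 ± 1.19 (adjusted p = 0.238) and each pair was higher, by log2 ratios of 1.67, 3.62 and 3.87, which passed with the block (adjusted p = 0.00194 against no change and 0.00593 against the fold threshold). PCK2 is therefore reported as uncertain.

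In counts per kilobase of exon, MDH1 was the most abundant of the 33 transcripts in DMSO at 3486 ± 197 (SD, n = 3), followed by MDH2 at 2880.0 ± 64.3 and CS at 1967 ± 79.4. With MAPKi these stood at 5873 ± 101, 3598 ± 59.6 and 3642 ± 16.5, so that CS and MDH2 were no longer apart by more than their spread. In CTRL medium MDH1 and MDH2 had 2749 ± 727 and 2557 ± 457, whose spreads overlap. After Gln depletion IDH1, at 2426 ± 618, stood level with MDH2 at 2275 ± 117, and MDH1 had 1386 ± 386.

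A list of 30 genes next to the members in the pathway was examined too, of which 25 were tested in each experiment. With MAPKi 7 were upregulated, against 17.0% of all genes tested, and 4 downregulated, against 18.6%. After Gln depletion 3 were upregulated, against 3.48% of all genes, and 0 downregulated, against 2.10%. At an unadjusted p under 0.05 against the fold threshold 5 were downregulated after Gln depletion, and with the block 4 were, against 7.84% of all genes. SDHD, a membrane anchor of succinate dehydrogenase, was upregulated with MAPKi by 1.11 ± 0.04. SDHA and SDHC rose with MAPKi by 0.65 ± 0.05 and 0.57 ± 0.04 without a call against the fold threshold. OGDHL, a relative of OGDH, was upregulated with MAPKi by 1.30 ± 0.06 and PDPR, the regulatory subunit of the phosphatase, by 0.78 ± 0.07. The mitochondrial 2-oxoglutarate carrier SLC25A11 was upregulated with MAPKi by 0.91 ± 0.04 and LDHD, a lactate dehydrogenase with few counts, by 2.85 ± 0.39. ACLY, which splits citrate in the cytosol, was downregulated with MAPKi, with a log2 fold change of -1.33 ± 0.04. LDHA passed as downregulated with MAPKi as well, at -1.77 ± 0.48. No library held more than 49 reads of it and a further copy in the table held more, so that it is uncertain.

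Of the aminotransferases that link glutamate to the cycle, GPT2 went opposite ways in the 2 experiments and GOT1 rose in both. GPT2, the mitochondrial alanine aminotransferase that makes 2-oxoglutarate from glutamate and pyruvate, had normalized counts of 1215, 1146 and 1211 with DMSO and 578, 554 and 513 with MAPKi, a log2 fold change of -1.12 ± 0.06. In the other experiment its libraries held 1725, 1433 and 1379 in CTRL medium and 7494, 7126 and 7212 after Gln depletion, a log2 fold change of 2.27 ± 0.19 (adjusted p = 0.00165 against the fold threshold). The treatments differed by -3.34 ± 0.17 in GPT2 (adjusted p = 9.64e-08). GOT1, the cytosolic aspartate aminotransferase, was upregulated in both, by 1.05 ± 0.05 and 2.14 ± 0.30, with a difference of -1.04 ± 0.33 (adjusted p = 0.0239). GOT2, its mitochondrial counterpart, was called in neither experiment. It changed by 0.09 ± 0.04 with MAPKi and by -0.68 ± 0.25 after Gln depletion (adjusted p = 0.0892 against no change). With the block the latter was -0.69 ± 0.11 (adjusted p = 0.0018 against no change).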

How the data were processed

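RNA was taken by the submitters from the cytoplasmic lysate of A375 cells, depleted of ribosomal RNA and sequenced as paired reads, while another field of the labels calls it total RNA. The authors trimmed the reads with fastp 0.20.1, aligned them to GRCh38.p13 with HISAT2 2.2.1 and counted them per gene with HTSeq 0.13.5, and the deposited values are raw read counts of 44659 genes in 12 libraries. Reads of cytoplasmic RNA under-represent transcripts kept in the nucleus. The strand setting of the counting was not given in the sources used here.

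The 2 experiments were fitted separately with edgeR 4.0.16 (R 4.3.3), each on its own 6 libraries after TMM normalization, so that levels are not compared across experiments. Genes that code for proteins and average 10 or more normalized counts were tested with the quasi-likelihood F-test, against no change and against a 1.5-fold change (glmTreat), with Benjamini-Hochberg adjustment over all genes tested. Values in the text are counts divided by the TMM-scaled total of protein-coding genes, at the mean total of the experiment, and errors of fold changes are SE. An adjusted p printed without further words is that against no change. The difference of effects was an interaction contrast over all 12 libraries. Counts per kilobase use the merged exon length of GENCODE v44 (GRCh38), which also gave positions. DESeq2 1.42.0 was among the alternatives, with other scalings, filters and thresholds, a replicate block, experimental batch 2 alone and each library left out. The fits were tested on simulated data first.

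Deviations of same-numbered Gln-depleted and CTRL libraries from their group means correlated at 0.58, 0.44 and 0.39 over 12514 genes, and the numbers were therefore taken to pair these libraries, with blocked values or counts printed where they change the call of a member. In both experiments the titles give same-numbered control and treated libraries a common identifier. The rule for the members uses no measured value, but the set, the pathway neighbours and the marker lists were chosen with earlier results of these data known. Every member may be named, with values in every library for those called in either experiment, for those whose effects differ 1.5-fold or more (adjusted p up to 0.05) and for the PDK family. Neighbours are named where called against the fold threshold, and SDHA, SDHB, SDHC and GOT2 are named beside them. Some called neighbours are counted but not reported here by name. No columns were left out.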

Additional observations from a re-analysis of the deposited data

How the results depend on the processing

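Over all alternatives, 442 values of single members with MAPKi and 474 after Gln depletion kept their direction and their side of the fold threshold, 14 MAPKi values lost their call, 4 with MAPKi and 8 after Gln depletion gained one, and 1 and 12 changed sign. With MAPKi, 13 members were upregulated; a fit of all 12 libraries gave 8, a 2-fold threshold 7, and no fold threshold 24, while 4 downregulated members became 2 at the 2-fold threshold. With libraries left out in turn the counts with MAPKi were from 11 to 13 upregulated and 4 to 4 downregulated, and after Gln depletion 0 to 0 and 1 to 1. After Gln depletion the 0 upregulated members became 1 in the fit of all 12 libraries, 2 with the replicate block, 1 in experimental batch 2 alone and 2 without a fold threshold, and the 1 downregulated member became 3 with the block, 3 in batch 2 alone and 2 without a fold threshold. The number of members whose effects differed, 24, ranged from 20 to 26 with single libraries left out, was 29 without replicate 1 of both groups of the glutamine experiment and 28 with the block. MAPKi and DMSO libraries with the same replicate number also share an identifier in their titles. Their correlations were from 0.06 to 0.07, every library highest with its own number, and the block there gave 14 upregulated and 4 downregulated members. SUCLG1, MDH1, PDP2, PC, ME3 and PCK2 lost their MAPKi call in the fit of all 12 libraries, ME3 also with DESeq2, and PDHA1 was called under library totals, with all genes tested, with the block and without DMSO replicate 3 (log2 fold changes from 0.65 to 0.69). The cause of these changes was not tested.

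Changes of sign fell on values near 0. IDH2 with MAPKi, with single libraries left out, lay between -0.0014 (without DMSO replicate 2) and 0.0884 (without DMSO replicate 3), and reached 0.091 under library totals. After Gln depletion SUCLA2 was -0.11 under library totals, from -0.2112 without CTRL replicate 1 to 0.2651 without CTRL replicate 2 (-0.1799 without Gln-depleted replicate 2) and -0.0606 in batch 2 alone. PC was 0.0027 with all genes tested, from 0.3931 without CTRL replicate 1 to -0.3888 without Gln-depleted replicate 1 (0.14 without Gln-depleted replicate 2, 0.10 without Gln-depleted replicate 3) and 0.0229 in batch 2 alone. PDK2 was from -0.1924 without CTRL replicate 2 to 0.0872 without CTRL replicate 1 and 0.0456 in batch 2 alone, and PDHX was from -0.2118 without Gln-depleted replicate 2 to 0.0401 without Gln-depleted replicate 1.

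Over all genes, the Gln depletion counts were the least stable, with 436 upregulated and 263 downregulated genes, from 195 to 489 and from 65 to 418 with libraries left out, 1107 and 981 with the block, 790 and 906 when all 12 libraries were fitted, 194 and 63 at the 2-fold threshold, and 1183 and 1055 without one. With MAPKi 2137 and 2339 genes became 1372 and 1659 when all 12 libraries were fitted, 1030 and 1269 at the 2-fold threshold, and 4903 and 4933 without one. Reads limit PCK2 and ME3, whose raw counts were as low as 3 and 14.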
